A study of Homo sapiens with 16 samples.

Results

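The 35 genes described here run the breakdown of glucose and the response to low oxygen in human cells. They were chosen by name, by a rule that uses no measured value, but with earlier results of these data known. All 35 were found among the 60671 genes of the count table. Of these, 23 were enzymes, transporters and regulators of glycolysis, and 12 were oxygen sensors or targets of hypoxia-inducible factor (HIF). All libraries came from HEK293, an established human embryonic kidney line grown in medium with serum. The study put 6 cloned transcripts of LINC01016, a long non-coding RNA gene of testis, into these cells in the pcDNA3.0 plasmid and asked what each transcript changes. The 8 groups of 2 libraries were parental cells, cells given empty vector, and cells given the transcript named T1, T2, CU1, CU2, CU1ENC or CU1ENU in the labels. The protocol gave 5 micrograms of isoform plasmid with a Lipofectamine reagent to cells in 60 mm plates and took RNA 48 hours later. It has no separate account of how the empty vector or parental cells were handled, so plasmid, reagent and handling cannot be told apart in a comparison with parental cells. No label gives the share of cells that took up plasmid, the oxygen level, or whether replicates were separate cultures. The p-values therefore cover only the scatter from library to library, and that scatter may be technical.

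Glycolysis turns glucose into pyruvate through a chain of cytosolic enzymes, most of which exist as several isozymes encoded by separate genes. Where oxygen is present, prolyl hydroxylases mark the HIF1A protein for destruction. Where oxygen falls, HIF1A persists, pairs with ARNT and binds short DNA elements with the core ACGTG or GCGTG, which raises transcription of glucose transporters, glycolytic enzymes, VEGFA and others. HIF1A is controlled mainly as a protein, which RNA counts do not measure. Glycolytic genes also respond to other factors, including MYC and the amino acid stress factor ATF4.

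Library totals ran from 15040770 to 17255935 counts. LINC01016 had 0 counts in both parental libraries, 1 and 0 in the empty vector libraries, and 40405 to 192244 in the 12 isoform libraries, which matches the labels. CPM are counts scaled by TMM factors to a library of 1000000, except in the next sentence, which uses library totals without these factors. Genes known in HEK293 were present, with VIM at 1242 to 1483 CPM and PAX2 low, at 1.95 to 8.23 CPM. Some of these genes differed from parental cells, in either direction. KRT8 had 8012 and 10630 counts in parental libraries and 11712 to 15085 in transfected ones. NEFL had 2468 and 2697 counts in parental libraries and 1638 to 2242 in transfected ones. Summed counts of leukocyte, erythroid, endothelial, keratinocyte and hepatocyte markers were at most 36 per library. The sum of 4 fibroblast markers was 311 and 406 in parental libraries and 60 to 168 in transfected ones, with DCN at 0 to 10 counts. These marker differences run along the comparison with parental cells, and their part in the results was not tested. In bulk RNA, fewer cells using a gene and less RNA per cell cannot be told apart.

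Core letters of the HIF element stood upstream of genes that moved in either direction, and 4 examples show this. In the RefSeq promoter table (GRCh38.p14), 31 of the 35 members were matched. BNIP3L, NDRG1, SLC2A3 and VEGFA were not. The search covered the 250 bases before each start, on both strands, for ACGTG and GCGTG. The E-box CACGTG, which other factors bind, holds ACGTG on both strands. Taking the most upstream start of each gene, 20 of 31 members held either core (64.5%), against 43.1% of 27305 genes in the table. The core ACGTG alone was in 13 members (41.9%) and in 18.6% of all genes. Below, HK2 and ADM were higher in transfected cells than in parental cells, and GAPDH and PGK1 were lower. For PGK1 the ranges overlapped, and its call depended on which libraries were kept, as given later. Capitals mark a core on either strand (for GAPDH the E-box), and each run lies upstream of a start on the plus strand.
HK2, chr2:74833883-74834098: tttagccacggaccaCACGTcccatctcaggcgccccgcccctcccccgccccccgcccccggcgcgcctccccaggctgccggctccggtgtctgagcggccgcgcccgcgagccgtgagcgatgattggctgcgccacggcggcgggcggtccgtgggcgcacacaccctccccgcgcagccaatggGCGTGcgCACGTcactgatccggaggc
ADM, chr11:10304957-10305072: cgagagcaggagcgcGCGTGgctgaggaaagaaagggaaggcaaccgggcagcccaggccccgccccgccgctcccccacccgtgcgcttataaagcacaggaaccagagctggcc
GAPDH, chr12:6535168-6535263: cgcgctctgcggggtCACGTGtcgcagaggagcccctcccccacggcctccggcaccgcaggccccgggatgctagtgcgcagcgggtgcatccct
PGK1, chrX:78104022-78104141: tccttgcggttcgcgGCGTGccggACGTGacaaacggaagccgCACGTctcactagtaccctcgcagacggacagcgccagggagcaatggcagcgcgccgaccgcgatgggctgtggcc

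Of the matched members that rose in all transfected cells against parental cells, as tested below, 5 of 7 held a core. Of those that fell, 3 of 5 did, and of the others 12 of 19. With ACGTG alone, the counts were 1 of 7, 2 of 5 and 10 of 19. A match is a description of letters and not of a bound site. In the deposited annotation (GRCh38.p13, plus strand) HK2 (ENSG00000159399) spans 74834127 to 74893359 on chromosome 2, and ADM (ENSG00000148926) spans 10305073 to 10307397 on chromosome 11. GAPDH (ENSG00000111640) spans 6534512 to 6538374 on chromosome 12, and PGK1 (ENSG00000102144) spans 77910739 to 78129295 on chromosome X. The HK2 and ADM runs lie before these spans, and the GAPDH and PGK1 runs lie within them but in no exon of the gene.

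Per kilobase of exon, the members spanned over 3 orders of magnitude in HEK293. Levels between genes are given as RPKM, that is, CPM divided by the exon length in kilobases. Enzymes of glycolysis had the highest levels: the mean over 16 libraries was 591 RPKM for GAPDH, 278 for ENO1, 143 for PKM, 131 for PGAM1 and 65.0 for PGK1. These encode glyceraldehyde-phosphate dehydrogenase, alpha-enolase, pyruvate kinase, phosphoglycerate mutase and phosphoglycerate kinase. TPI1, triosephosphate isomerase of upper glycolysis, had a mean of 213 RPKM, and LDHA, which makes lactate from pyruvate, 111 RPKM. PKM and PGAM1 overlapped in their ranges of 131 to 158 and 113 to 143 RPKM. HIF1A led the 12 hypoxia members with a mean of 38.6 RPKM, followed by BNIP3L at 18.8, ADM at 17.3 and DDIT4 at 17.2. The ranges of these last 3 overlapped, and their order differed between groups: ADM was the lowest of the 3 in parental cells, at a mean of 8.14 RPKM, beside 22.7 for BNIP3L and 21.0 for DDIT4. At the bottom were SLC16A3, the lactate exporter MCT4, with a mean of 0.233 RPKM, and CA9. CA9, the cell-surface carbonic anhydrase much used as a hypoxia marker, had 0 to 3 counts per library and 11 counts in all 16, and was under the filter on low counts. The other 34 members were tested.

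**Figure D1:**
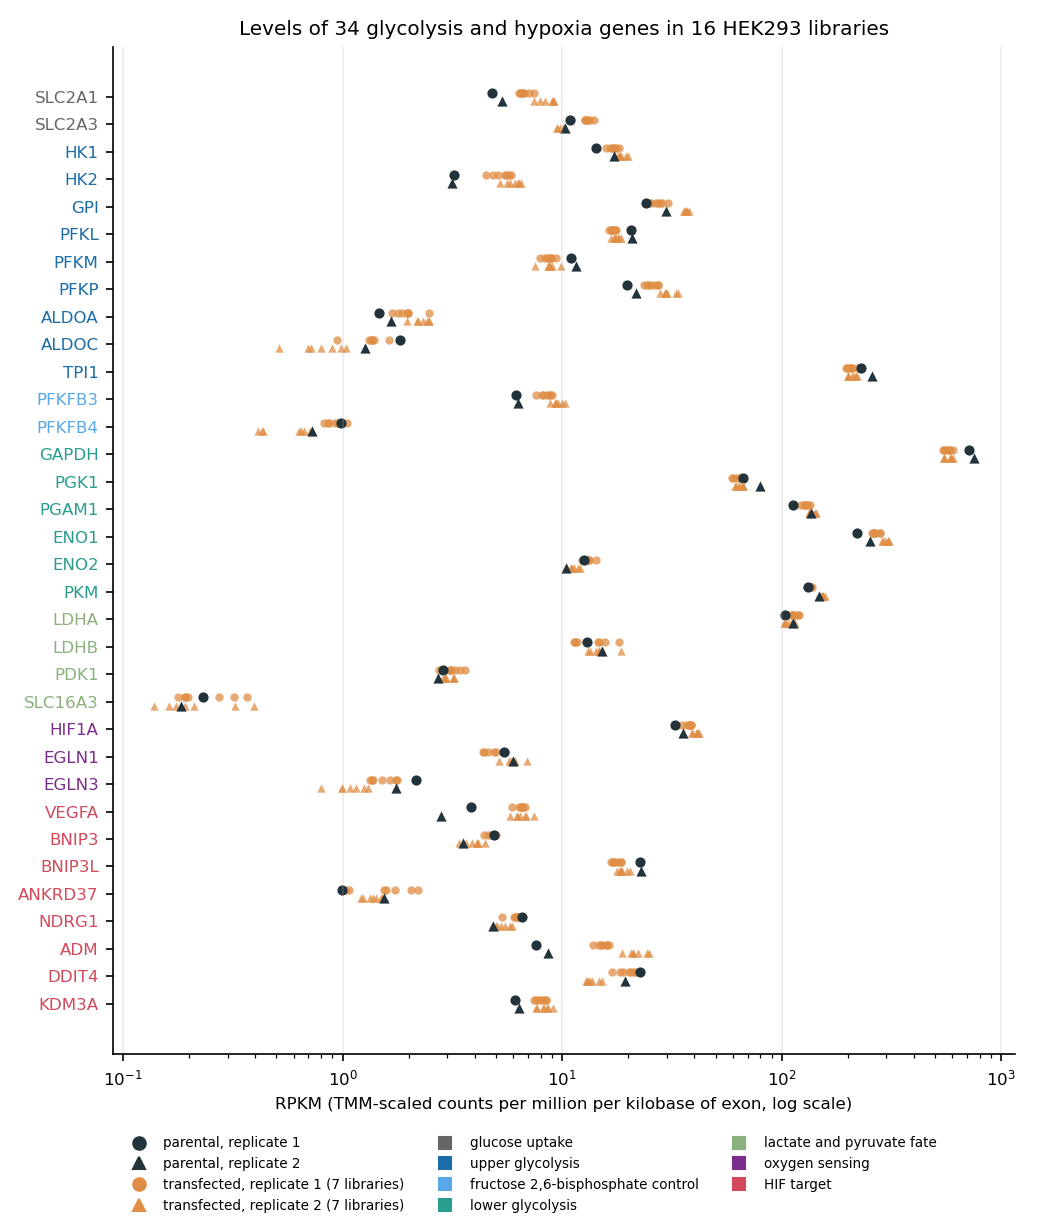
Level of 34 members in each of 16 libraries as RPKM on a log axis, with parental libraries in dark symbols and the 14 transfected libraries in orange, and gene names coloured by role. The span runs from SLC16A3, with a mean of 0.233 RPKM, to GAPDH at 591; in HK2, VEGFA and ADM both parental libraries lie below all 14 transfected ones.

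Annotation limits the level of 3 members. ALDOA, the muscle-type aldolase, had only 5.62 to 9.51 CPM. On its strand another annotated gene, ENSG00000285043, covers 43.3% of its exonic bases and 100% of its coding bases. In LDHB, which favours pyruvate over lactate, another gene likewise covers 33.4% of the exonic bases and 93.5% of the coding bases. In EGLN1, the main prolyl hydroxylase, these shares are 55.8% and 30.3%. The recorded counting command has no option to assign a read to several genes, so reads in the shared bases are not in these counts. Levels and shares that use ALDOA, LDHB or EGLN1 are therefore uncertain. Another 6 members shared at most 5.08% of their exonic bases. Pseudogenes named after a member held at most 0.86% of its counts, and the command has no option to count reads that fit several places.

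Where a step has several isozymes, the share of each differed between parental and transfected libraries most plainly among the phosphofructokinases. Of these enzymes, which commit sugar to glycolysis, PFKP made up 38.4% and 39.9% of the summed RPKM in parental libraries. In the 14 transfected libraries its share was 47.3% to 58.3%, with a median of 51.6%. PFKL held 38.6% and 40.2% in parental libraries and 28.8% to 35.4% in transfected ones, and PFKM 21.4% in both parental libraries and 12.9% to 18.3% in transfected ones. In none of the 3 genes did the parental and transfected shares overlap. HK2, the inducible hexokinase, made up 15.4% and 18.3% of HK1 plus HK2 in parental cells and 19.8% to 26.9% in transfected cells. The glucose transporter SLC2A1 (GLUT1) held 30.6% and 34.2% of its sum with SLC2A3 (GLUT3) in parental cells and 32.6% to 48.2% in transfected cells, ranges that overlap. ENO1 held 94.6% to 96.6% of the enolases, and LDHA 85.7% to 91.0% of the lactate dehydrogenases with the limit on LDHB. BNIP3L held 77.4% to 86.6% of its sum with BNIP3. Shares are descriptions and were not tested.

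**Figure D2:**
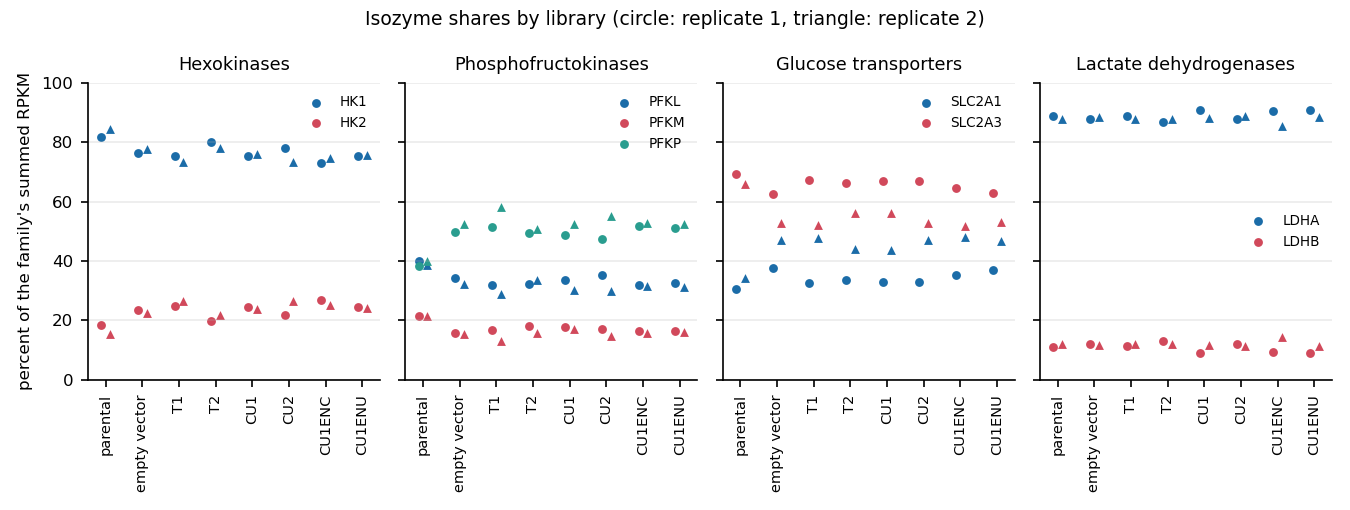
Percent of a family's summed RPKM (vertical axis) held by each isozyme, by group (horizontal axis) and library. PFKP is at 38.4% and 39.9% in parental cells and at 47.3% to 58.3% in transfected libraries, and LDHA lies between 85.7% and 91.0%.

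Cells given empty vector differed from parental cells in 8 members. HK2, PFKFB3, VEGFA and KDM3A rose, and PFKM, TPI1, GAPDH and BNIP3L fell. The count of 4 up among 34 tested stands beside 9.41% of all 19316 genes that rose, and 4 down beside 6.6% that fell (edgeR's quasi-likelihood test, Benjamini-Hochberg adjusted p under 0.05). The median log2 fold change was 0.01 for the members and 0.01 for all genes. Split by class, 2 of 23 glycolysis members rose and 3 fell, and 2 of 11 tested hypoxia members rose and 1 fell. Same-numbered libraries deviated together, and the fit blocked by replicate number called 11 members up and 9 down, beside 18.4% and 15.9% of all genes.

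Glucose entry and capture came first in the pathway. HK2 phosphorylates glucose as it enters the cell. It had 19.1 and 18.6 CPM in parental libraries and 30.1 and 33.2 CPM with empty vector. Across all 14 transfected libraries it ran from 26.5 through a median of 33.6 to 38.6 CPM, above both parental values. With empty vector HK2 rose by 0.75 ± 0.14 (log2, SE; edgeR adjusted p = 0.00249), and kept its call when any 1 of the 16 libraries was left out. SLC2A1, the basal glucose carrier, had 31.8 and 35.4 CPM in parental cells, 43.8 and 55.6 with empty vector, and 42.1, 49.1 and 60.8 CPM as the lowest, median and highest transfected values. Its difference of 0.56 ± 0.20 missed the threshold in edgeR (adjusted p = 0.0779) and passed with the block (edgeR adjusted p = 2.21e-06) and in DESeq2 (adjusted p = 0.0404). SLC2A3 had 66.3 and 62.6 CPM in parental cells and 67.0 and 57.4 with empty vector, values that overlap. HK1, the housekeeping hexokinase, had 90.3 and 109 CPM against 104 and 123, which also overlap; its 0.19 ± 0.11 passed with the block (edgeR adjusted p = 0.266 without, 0.0215 with).

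The 3 phosphofructokinase genes did not move together. PFKM, the muscle-type subunit, had 79.9 and 84.2 CPM in parental cells, 57.3 and 63.1 with empty vector, and 54.5, 63.7 and 71.5 CPM as the lowest, median and highest transfected values. With empty vector it fell by 0.45 ± 0.09 on the log2 scale (edgeR adjusted p = 0.00572). Without empty vector replicate 1 that call was lost. PFKL, the liver-type subunit, had 184 and 187 CPM in parental cells and 154 and 162 with empty vector, both lower; its -0.23 ± 0.08 missed the threshold in edgeR (adjusted p = 0.0571) and passed with the block (edgeR adjusted p = 0.00183) and in DESeq2 (adjusted p = 0.0374). PFKP, the platelet-type subunit, had 110 and 120 CPM in parental cells and 139 and 165 with empty vector, both higher. Its 0.40 ± 0.16 passed with the block (edgeR adjusted p = 0.101 without, 4.6e-05 with).

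PFKFB3 makes fructose 2,6-bisphosphate, the strongest activator of phosphofructokinase. It rose by 0.44 ± 0.13 with empty vector (edgeR adjusted p = 0.0317), from 37.6 and 38.3 CPM to 46.4 and 56.7 CPM. The call was lost without either parental library or without empty vector replicate 2, while the 14 transfected libraries, at 46.4 to 63.0 CPM, all lay above the parental pair. PFKFB4, a second enzyme of this family, had 6.04 and 4.45 CPM against 5.03 and 4.36, which overlap.

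In the middle of the chain, GAPDH and TPI1 fell. GAPDH had 1709 and 1800 CPM in parental cells, 1296 and 1312 with empty vector, and 1296, 1381 and 1447 CPM as the lowest, median and highest transfected values. It fell by 0.43 ± 0.08 with empty vector (edgeR adjusted p = 0.00302), a call kept with any library left out. Since GAPDH often serves as a reference gene, its fold is given also as a percentage: 25.7% lower. TPI1 had 623 and 700 CPM in parental cells and 537 and 542 with empty vector, and fell by 0.29 ± 0.09 (edgeR adjusted p = 0.0316). That call was lost without parental replicate 2, without either empty vector library, or with only the 2 groups compared in the fit. PGK1, next after GAPDH in the chain, had 362 and 435 CPM against 326 and 338, and its -0.26 ± 0.09 missed the threshold in edgeR (adjusted p = 0.0612) and passed with the block (edgeR adjusted p = 0.000906) and in DESeq2 (adjusted p = 0.0351). ENO1 had 1150 and 1325 CPM against 1343 and 1490, and its 0.20 ± 0.12 passed with the block (edgeR adjusted p = 0.283 without, 0.00317 with). GPI, glucose-phosphate isomerase, had 258 and 317 CPM against 298 and 385, which overlap, and passed with the block at 0.24 ± 0.06 (edgeR adjusted p = 0.00196). ALDOC, the brain-type aldolase, was low, at 4.79 and 3.29 CPM against 3.62 and 1.34, and passed with the block at -0.75 ± 0.28 (edgeR adjusted p = 0.0395).

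The last step, PKM, and the fate of pyruvate gave no call in either fit. ENO1, the step before PKM, passed only with the block, as given above. PKM had 1129 and 1266 CPM in parental cells and 1121 and 1289 with empty vector, with a log2 fold change of 0.01 ± 0.12. LDHA had 628 and 678 against 648 and 619 CPM, and -0.04 ± 0.09. PDK1, which switches off pyruvate dehydrogenase, had 42.6 and 40.4 against 41.0 and 43.4 CPM, and 0.02 ± 0.09. These 3 pairs overlap. PGAM1 (0.00 ± 0.11), ENO2 (0.05 ± 0.15), LDHB (-0.00 ± 0.21), ALDOA (0.41 ± 0.22) and SLC16A3 (-0.16 ± 0.41) were not called either. The 15 enzymes from hexokinase to pyruvate kinase together took 0.613% and 0.682% of counts in parental libraries and 0.586% to 0.652% in transfected ones.

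Among the HIF targets, VEGFA and KDM3A rose, and VEGFA had the largest fold of the 8 members called without the block. VEGFA, the vascular growth factor, had 55.8 and 40.4 CPM in parental cells, 95 and 89.8 with empty vector, and 83.8, 94.3 and 107 CPM as the lowest, median and highest of the 14 transfected values, so the groups did not overlap. With empty vector it rose by 0.94 ± 0.12 (edgeR adjusted p = 0.000238), and leaving out any library kept the call, with log2 fold changes from 0.71 to 1.17. Its parental pair was the furthest apart of the 8 pairs, at -0.47 on the log2 scale for replicate 2 over replicate 1, against -0.14 to 0.16 in the transfected groups. KDM3A, a histone demethylase gene, had 81.3 and 84.9 CPM against 112 and 110 and rose by 0.42 ± 0.09 (edgeR adjusted p = 0.00614). Without parental replicate 1 that call was lost. ADM, the peptide hormone adrenomedullin, had 17.8 and 20.1 CPM in parental cells, 32.3 and 43.7 with empty vector, and 32.3, 40.9 and 57.6 CPM as the lowest, median and highest transfected values. Its 1.00 ± 0.31 missed the threshold in edgeR (adjusted p = 0.0536) and passed with the block (edgeR adjusted p = 9.96e-10) and in DESeq2 (adjusted p = 0.00307).

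BNIP3L fell. This mitophagy receptor had 93.6 and 94.6 CPM in parental cells, 70.9 and 74.1 with empty vector, and 69.7, 76.2 and 84.5 CPM as the lowest, median and highest transfected values. It fell by 0.38 ± 0.09 with empty vector (edgeR adjusted p = 0.00936), a call lost without empty vector replicate 1. Its relative BNIP3 had 26.1 and 18.8 against 23.4 and 21.9 CPM, which overlap. DDIT4, an inhibitor of mTORC1 signalling, had 46.3 and 39.9 CPM against 34.6 and 30.3, and its -0.41 ± 0.32 passed with the block (edgeR adjusted p = 0.433 without, 0.00203 with). NDRG1 had 78.8 and 57.9 against 64.0 and 60.2 CPM, which overlap. ANKRD37 had 2.25 and 3.47 against 4.60 and 3.39 CPM, which overlap too. Within replicate 1 its ratio of empty vector to parental was 1.03 on the log2 scale, and within replicate 2 it was -0.03.

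None of HIF1A, EGLN1 and EGLN3 was called with empty vector without the block. HIF1A had 169 and 183 CPM in parental cells, 198 and 201 with empty vector, and 182, 200 and 216 CPM as the lowest, median and highest transfected values. Its 0.18 ± 0.10 passed with the block (edgeR adjusted p = 0.231 without, 0.0139 with). EGLN1 had 29.4 and 32.2 CPM in parental cells and 24.8 and 37.4 with empty vector, which enclose the parental values. EGLN3, the prolyl hydroxylase that is itself a HIF target, had 15.9 and 12.9 CPM in parental cells, 10.2 and 9.22 with empty vector, and 5.9, 9.76 and 13 CPM as the lowest, median and highest transfected values. Its -0.57 ± 0.32 passed with the block (edgeR adjusted p = 0.247 without, 0.00696 with). Together the 12 hypoxia members held 0.0593% and 0.0622% of counts in parental libraries and 0.0667% to 0.0723% in transfected ones. Such a sum is weighted to the abundant members and does not show a rise of the set. With all transfected groups against parental cells, 6 of the 11 tested had a positive log2 fold change and 5 a negative one. Their median was 0.05, beside -0.004 for all genes.

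The direction of the called differences was the same within each replicate number. The ratios come from the same libraries as the calls, so they are no independent repeat. HK2 had log2 ratios of empty vector to parental of 0.66 in replicate 1 and 0.83 in replicate 2, VEGFA 0.77 and 1.15, ADM 0.86 and 1.12, and KDM3A 0.47 and 0.38. For the members that fell, the ratios were -0.40 and -0.46 in GAPDH, -0.48 and -0.42 in PFKM, -0.21 and -0.37 in TPI1, and -0.40 and -0.35 in BNIP3L. LDHA, SLC2A3, NDRG1, BNIP3, EGLN1, LDHB, PDK1, PKM, PGAM1, SLC16A3 and ANKRD37 changed sign between the replicates.

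**Figure D3:**
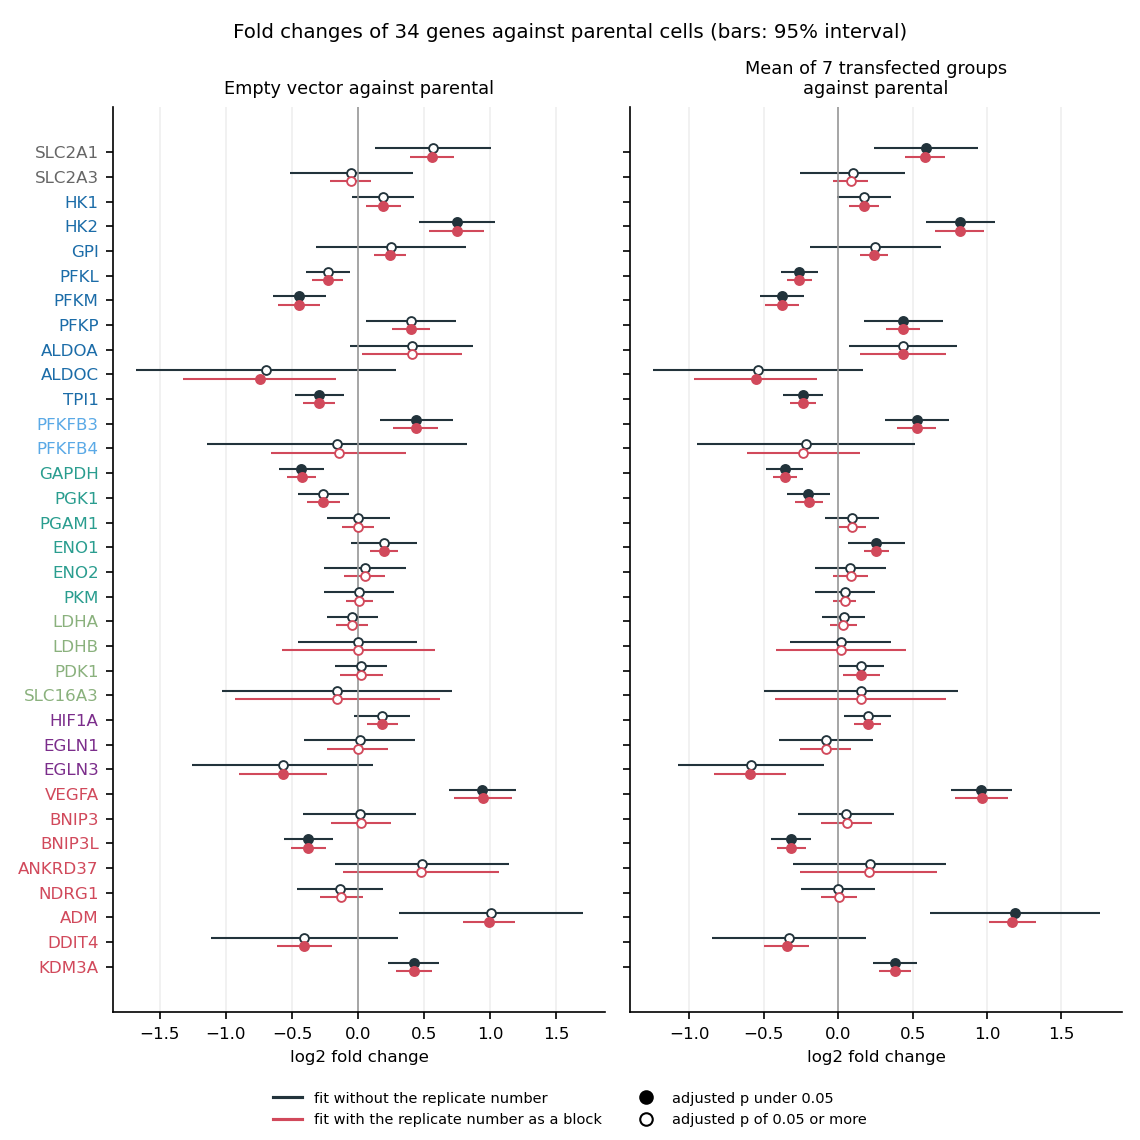
Log2 fold change (horizontal axis) of 34 members with its 95% interval, for empty vector against parental cells (left) and the mean of 7 transfected groups against parental cells (right); filled points passed an adjusted p under 0.05. VEGFA stands at 0.94 and 0.96, GAPDH at -0.43 and -0.36, and the intervals are narrower in most genes when blocked by replicate number.

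With all 7 transfected groups averaged, 14 libraries stood against the same 2 parental ones, and 14 members were called. This comparison shares the parental and empty vector libraries with the one before, so it is no independent repeat. The 8 that rose were HK2 (0.82 ± 0.11), PFKP (0.44 ± 0.12), PFKFB3 (0.53 ± 0.10), ENO1 (0.26 ± 0.09), SLC2A1 (0.59 ± 0.16), VEGFA (0.96 ± 0.10), ADM (1.19 ± 0.26) and KDM3A (0.38 ± 0.07), all as log2 fold change ± SE. The 6 that fell were PFKL (-0.26 ± 0.06), PFKM (-0.38 ± 0.07), TPI1 (-0.24 ± 0.06), GAPDH (-0.36 ± 0.06), PGK1 (-0.20 ± 0.07) and BNIP3L (-0.32 ± 0.06). Of all genes, 15.4% rose and 14.3% fell in edgeR. VEGFA had the lowest adjusted p (1.68e-05), and ENO1 the highest of the 14 (0.0452). With the block, 13 members rose and 9 fell, beside 23.1% and 22.5% of all genes, the added ones being HK1, GPI, ALDOA, PDK1, HIF1A, ALDOC, EGLN3 and DDIT4. The calls of PFKP and SLC2A1 were lost without either parental library, that of TPI1 without parental replicate 2, and that of ADM without parental replicate 1. ENO1 and PGK1 each lost theirs in 10 of 16 settings that left out a library. Most of these calls showed as separate ranges. Over the 14 transfected libraries the lowest, median and highest values were 131, 154 and 188 CPM for PFKP, all above the parental 110 and 120. For ENO1 they were 1343, 1476 and 1614 CPM, above 1150 and 1325, the nearest by a small margin. PFKL gave 146, 155 and 165 CPM, below 184 and 187. TPI1 gave 528, 561 and 604 CPM, below both parental values but close to the lower of them, 623. PGK1 gave 325, 348 and 364 CPM, and its highest value overlapped the parental 362. KDM3A gave 99.5, 109 and 121 CPM, above 81.3 and 84.9. Among members added by the block, HK1 gave 99.6, 112 and 125 CPM, GPI 267, 353 and 406 CPM, and DDIT4 26.4, 32.9 and 44.1 CPM, and each overlapped its parental pair. ALDOC gave 1.34, 2.64 and 4.27 CPM, which also overlap. In 9 of 34 members all 14 transfected libraries lay above both parental ones, and in 5 all lay below, beside 16.8% and 14.9% of all genes. ALDOA was among the 9 without a call in the fit without the block (0.44 ± 0.17, edgeR adjusted p = 0.066), at 5.62 and 6.4 CPM in parental and 6.45 to 9.51 CPM in transfected libraries.

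No member passed the test for any of the 6 LINC01016 transcripts against empty vector. In edgeR 0 of 34 members were called for T1, T2, CU1, CU1ENC and CU1ENU, beside 0.0104% of all genes in each, and 0 for CU2, beside 0.00518%. The mean of the 6 isoforms called 0 members, beside 0.0104%, and the F-test for any difference among the 6 called 0, beside 0% of all genes. With the replicate block, and in DESeq2, the count of members was likewise 0 in every one of these comparisons. At an unadjusted p under 0.05, T1, T2 and CU1 had 1 member each, and CU2, CU1ENC and CU1ENU had 0; the mean of the 6 had 1 and the F-test 0. A count of 1 is 2.94% of the members, beside 1.09%, 2.32%, 1.63% and 1.5% of all genes for T1, T2, CU1 and the mean. With the block, the members at an unadjusted p under 0.05 were 4 for T1 (11.8%, beside 2.94% of all genes), 6 for T2 (17.6%, beside 7.58%), 7 for CU1 (20.6%, beside 4.83%), 2 for CU2 (5.88%, beside 3.03%) and 2 for CU1ENC (5.88%, beside 2.18%). They were 3 for CU1ENU (8.82%, beside 3.56%), 6 for the mean (17.6%, beside 4.03%) and 2 for the F-test (5.88%, beside 3.19%). None of these passed the adjustment over all genes. All 6 contrasts share the 2 empty vector libraries, so a low or high empty vector value shifts all of them together.

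In the fit without the block, the members closest to a call were PDK1, SLC16A3 and ANKRD37, and the values in this paragraph are from that fit. With the block, the lowest adjusted p of any member was 0.515 for T2 and 0.975 for CU1 (edgeR). PDK1 had 41.0 and 43.4 CPM with empty vector, 51.0 and 47.9 with T2, and 53.7 and 47.4 with CU1, so both transcripts lay above both empty vector values. Its log2 fold change was 0.23 ± 0.09 for T2 (unadjusted p = 0.0266) and 0.26 ± 0.09 for CU1 (unadjusted p = 0.0132), and edgeR's adjusted p was 1.00 for both. Averaged over the isoforms PDK1 stood at 0.15 ± 0.07 (edgeR adjusted p = 1.00). SLC16A3 had 1.59 and 1.73 CPM with empty vector and 2.88 and 3.54 with T1, a difference of 0.95 ± 0.39 (unadjusted p = 0.0296, edgeR adjusted p = 1.00) at 19 to 56 counts per library. CU2 gave 1.72 and 2.91 CPM for SLC16A3, and CU1ENC 3.30 and 1.57, with replicates further apart than the groups. ANKRD37 had 37 to 81 counts per library. It stood at 4.60 and 3.39 CPM with empty vector, 2.41 and 3.02 with T2 and 2.34 and 2.74 with CU1ENU. The differences were -0.56 ± 0.31 and -0.65 ± 0.31 (edgeR adjusted p = 1.00 for both).

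The remaining leading members of each transcript in the fit without the block were small in size. They were PFKFB3 (0.16 ± 0.13) and VEGFA (0.14 ± 0.12) for T1, and BNIP3L (0.15 ± 0.09) for T2. For CU1 they were PFKM (0.17 ± 0.09) and GAPDH (0.13 ± 0.08), and for CU2, SLC2A3 (0.20 ± 0.21) and BNIP3L (0.08 ± 0.09). For CU1ENC they were PDK1 (0.16 ± 0.09) and NDRG1 (0.21 ± 0.15), and for CU1ENU, LDHA (0.15 ± 0.09) and PDK1 (0.13 ± 0.09). The interval of the difference sets what could be missed. For HK2, a 95% interval of -0.10 to 0.46 with CU1ENU leaves room for a rise smaller than the one with empty vector. For VEGFA with T1 it was -0.11 to 0.39. In the F-test without the block the leading member was SLC16A3 (edgeR adjusted p = 1.00). With the block it was SLC2A1 (edgeR F-test, unadjusted p = 0.0267), which did not pass the adjustment.

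**Figure D4:**
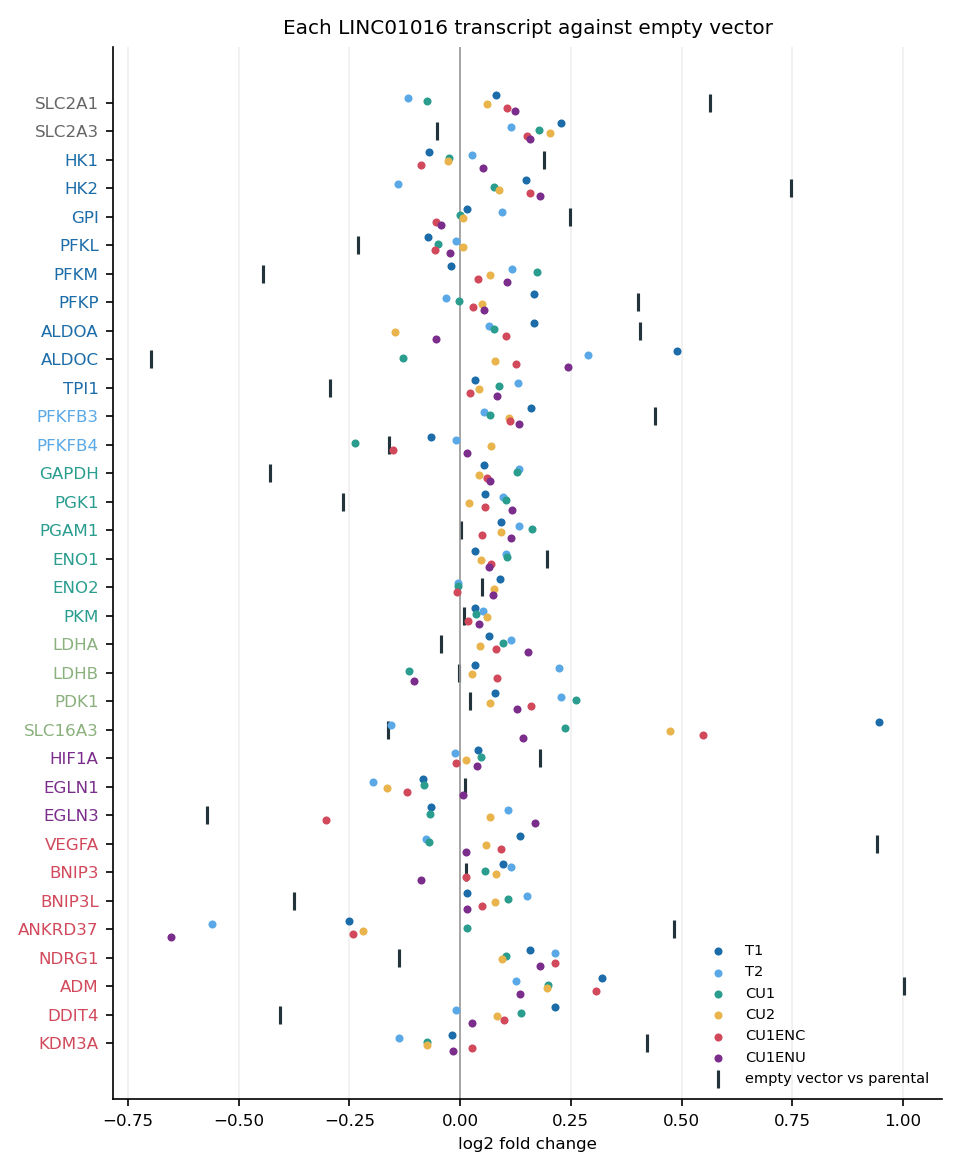
Log2 fold change (horizontal axis) of 34 members for each of 6 transcripts against empty vector (coloured points), with the change of empty vector against parental cells as a vertical tick. No point passed the test; the points of HK2, VEGFA, ADM and GAPDH lie nearer 0 than their ticks at 0.75, 0.94, 1.00 and -0.43, and the largest, T1 for SLC16A3, is at 0.95.

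Many members differed by replicate number. In the blocked fit, 13 of 34 members were higher in replicate 2 and 8 were lower, beside 18% and 17.9% of all genes (edgeR). No label says what a number marks, so these values describe the libraries and not a condition. GPI led, 0.41 ± 0.03 higher in replicate 2 (edgeR adjusted p = 3.41e-12): its transfected libraries had 267 to 323 CPM in replicate 1 and 383 to 406 CPM in replicate 2. ADM was 0.48 ± 0.05 higher (edgeR adjusted p = 6.51e-10), at 32.3 to 38.1 CPM in replicate 1 and 43.7 to 57.6 in replicate 2. DDIT4 was lower, at -0.48 ± 0.05 (edgeR adjusted p = 9.39e-09), with 34.6 to 44.1 CPM in replicate 1 and 26.4 to 31.2 CPM in replicate 2. Transfected libraries of the 2 numbers did not overlap in these 3 genes. The glucose transporters went opposite ways, with SLC2A1 at 0.32 ± 0.04 (edgeR adjusted p = 1.1e-07) and SLC2A3 at -0.33 ± 0.04 (edgeR adjusted p = 2.44e-08).

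**Figure D5:**
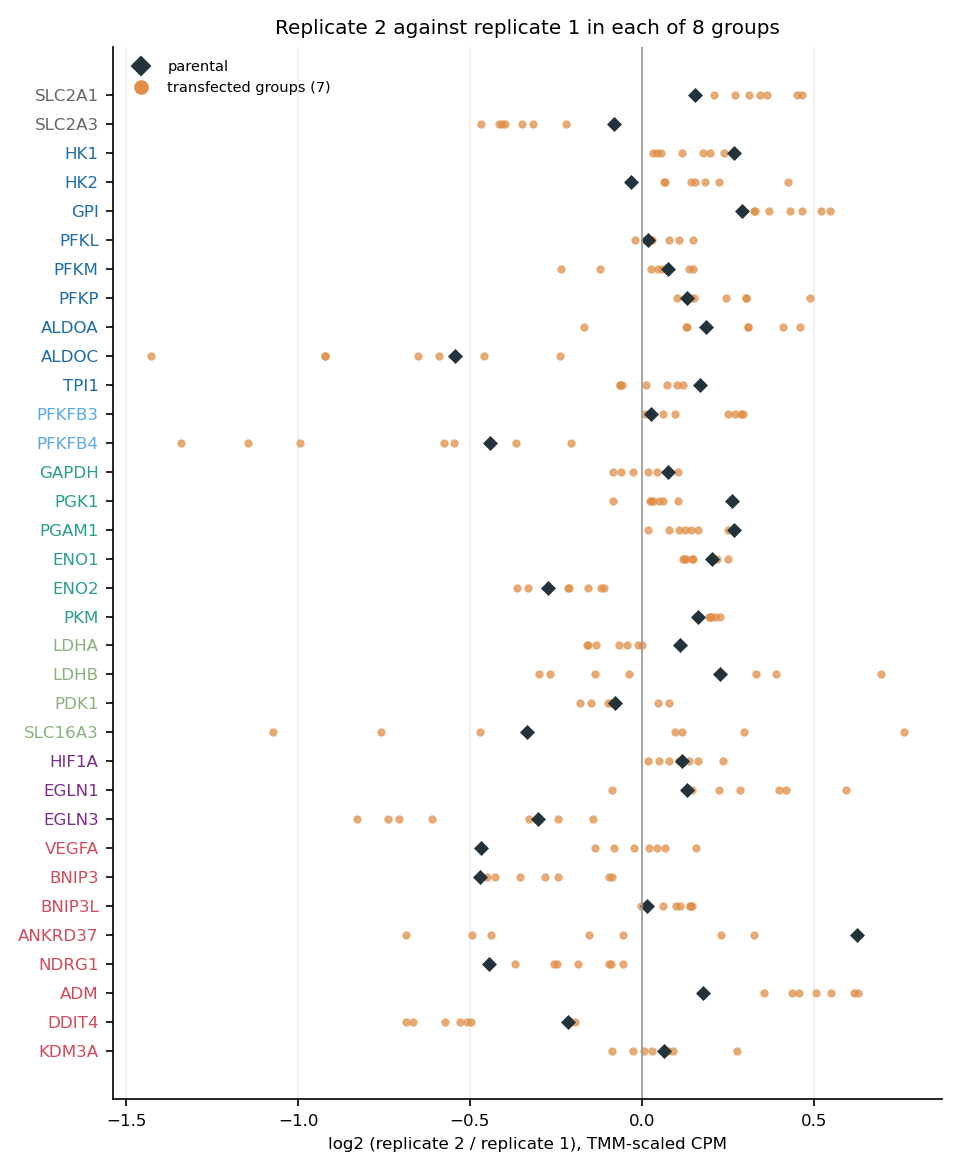
Log2 ratio of replicate 2 to replicate 1 in TMM-scaled CPM (horizontal axis) for 34 members, with a diamond for parental cells and a circle for each of 7 transfected groups. GPI and ADM lie to the right of 0 in all 8 groups and DDIT4, EGLN3 and BNIP3 to the left in all 8.

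Other genes of the pathways gave a mixed picture for empty vector against parental cells. Beyond the members, 6 of 28 further HIF targets rose and 3 fell, with a median of 0.01, beside the 9.41% and 6.6% of all genes given above. STC2 (1.28 ± 0.14) and BHLHE40 (0.70 ± 0.09) had the lowest p of the rises, and INSIG2 (-0.39 ± 0.09), VLDLR (-0.55 ± 0.15) and CA12 (-0.88 ± 0.28) were those that fell. Of 15 tested genes of the oxygen sensing machinery, 4 rose and 1 fell. The one that fell was ARNT, the partner of HIF1A (-0.41 ± 0.10), and SIAH2 (0.53 ± 0.14) and SIAH1 (0.38 ± 0.10), ubiquitin ligases that act on prolyl hydroxylases, were among those that rose. EPAS1, which encodes HIF-2 alpha, had group means of 4.42 to 5.04 RPKM, and HIF3A had 0 to 3 counts per library.

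The counts in this paragraph stand beside 9.41% of all genes that rose and 6.6% that fell. Elsewhere in sugar metabolism, 4 of 16 tested further isozymes and transporters were called and all 4 fell, with a median of -0.19 over the 16. The transporters SLC2A12 (-0.87 ± 0.20), SLC2A13 (-0.44 ± 0.13) and SLC2A10 (-0.79 ± 0.23) had the lowest p of these. Of 7 glycolytic isozymes of testis, 4 passed the filter, and 0 of them were called in edgeR (1 at an unadjusted p under 0.05). In the pentose phosphate pathway PGLS (-0.67 ± 0.11) was the 1 of 7 genes that fell. Of 12 genes of pyruvate dehydrogenase and pyruvate transport, MPC1 rose (0.45 ± 0.12) and PDK3 (-0.79 ± 0.17) and PDK2 (-0.41 ± 0.11) fell. In the citric acid cycle 2 of 16 rose, SDHB (0.45 ± 0.11) and IDH3A (0.41 ± 0.11), and SDHC fell (-0.38 ± 0.09). Markers of the ATF4 stress response changed in the same comparison: 7 of 8 rose, with a median of 1.05. This list, like the others, was drawn up with earlier results of these data known. ATF3 stood at 2.36 ± 0.15, PPP1R15A at 2.09 ± 0.18 and DDIT3 at 1.30 ± 0.10. Their part in the changes of the members was not tested.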

How the data were processed

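For 16 HEK293 libraries the authors deposited raw read counts by gene, as whole numbers. Per the file headers, the counts came from featureCounts 2.0.1 with strand option 2 over Ensembl release 101 exons, with neither the option for reads that fit several genes nor the one for reads that map to several places. Per the submitters' processing notes, HISAT2 and DESeq2 were used and the build was GRCh38.p13; no source used here gives the alignment settings.

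Groups and replicate numbers came from the sample titles. Replicates of a group differed well beyond sampling noise (chi-square per degree of freedom from 6.21 to 17), so each library was kept. Genes passing filterByExpr (minimum count 10, minimum total 15; 19316 genes) were scaled by TMM (factors 0.974 to 1.03) and tested with edgeR 4.0.16 in R 4.3.3: robust quasi-likelihood F-tests on 8 group means, 8 residual degrees of freedom, Benjamini-Hochberg over all tested genes, threshold 0.05. Fold changes are log2 with the standard error (SE) derived from the test. The scripts were tested on simulated data.

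The 2 numbers pair the libraries: deviations from group means correlated in all 28 pairs of groups (r 0.253 to 0.603, median 0.364). This comes from the data; no label says what a number marks. The blocked fit has 7 residual degrees of freedom and a common dispersion of 0.00436 against 0.0184. Depth, at 15040770 to 17255935 counts per library, limits members under 100 counts, such as SLC16A3, ALDOC, ANKRD37 and CA9.

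Members and lists were chosen with earlier results of these data known. The rule for named genes took all members; values in every library for those called against parental cells in either fit and for HIF1A, EGLN1 and EGLN3; the 3 of lowest p per isoform; the 5 of lowest p by replicate number; and up to 3 called genes per direction of each other list. Alternatives were RLE and upper quartile scaling, DESeq2 1.42.0, 2 other filters, fewer groups in the fit, the block, and leaving out each library. Overlapping exons were counted from the deposited coordinates, and coding bases from GENCODE. No protein sequence was used here, and 1 gene that the rule names in another list is not reported here.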

Additional observations from a re-analysis of the deposited data

How the results depend on the processing

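The count of members that rose with empty vector against parental cells, 4 in the reported fit, was 11 with the replicate block, 7 with no filter on low counts and 7 with only the 2 groups compared in the fit. DESeq2 called 6 up and 6 down. Leaving out 1 library gave 2 to 5, the lowest without parental replicate 1. The count that fell, 4 as reported, was 9 with the block and 1 to 5 with a library left out, the lowest without empty vector replicate 1. For all transfected groups, 8 members rose as reported, 13 with the block, and 4 to 9 with a library left out, with 4 without parental replicate 1 and 5 without parental replicate 2. The cause of these shifts was not tested, but leaving out a parental library leaves 1 in that group, assumed to vary like the others. The count that fell, 6 as reported, ran from 4 to 7 with a library left out and reached 9 with the block. No alternative called a member for any isoform. Calls over all genes moved too. With empty vector, 1818 genes rose and 1274 fell as reported, against 1944 and 1437 with no filter. Under upper quartile scaling 1701 rose and 1621 fell, and under RLE scaling 1758 and 1298. With a filter of CPM above 1 in 2 libraries 1833 rose and 1311 fell. With the block, 18.4% rose and 15.9% fell, against 9.41% and 6.6% as reported. For all transfected groups the block gave 23.1% and 22.5%, against 15.4% and 14.3%. Shares of all genes under the remaining settings are not given here, so the counts of members there lack that scale.

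Members near 0 changed sign between settings with empty vector against parental cells, with no call. LDHB, at -0.00357 as reported, was 0.00203 with the block, and PGAM1, at 0.000834, was -0.00293 in DESeq2. EGLN1, at 0.01 as reported, was -0.00359 with the block, -0.0270 under upper quartile scaling, -0.00277 with no filter, and -0.31 to 0.28 with a library left out. PDK1, at 0.02, was -0.0145 under upper quartile scaling and -0.0270 to 0.0659 with a library left out. The block changed no call among the members other than those named in the report. As shares of raw counts in place of RPKM, the transfected median was 41.5% for PFKL, 96.6% for ENO1, 93.9% for LDHA, 76.1% for EGLN1 and 23.8% for BNIP3. Scaling moved the median log2 fold change of all genes by less than 0.1, from 0.01 to -0.03 at most. Outlier tests need at least 4 libraries a group and were not run.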
